A study of Mus musculus with 11 samples.

Results

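Transcripts of 9 genes of cell cycle control were read in the developing cochlear duct. They are the CDK inhibitors Cdkn1a, Cdkn1b, Cdkn1c, Cdkn2c and Cdkn2d, the D cyclins Ccnd1, Ccnd2 and Ccnd3, and Rb1. Neither protein levels nor exit from the cell cycle were measured. The genes were picked by their symbols, and all 9 were found among the 18667 genes listed at each of the 4 ages. Their levels were read in 4 classes of cells picked by marker genes: hair cells (HCs), prosensory cells, supporting cells (SCs) and cells of Kölliker's organ (KO). Neither the 9 genes nor genes of proliferation were among the markers. Many markers come from the study's own tables, and the study used Cdkn1b and Sox2 to find its prosensory cells at E14. The prosensory markers may therefore not be independent of Cdkn1b.

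D cyclins bind CDK4 and CDK6 and start the phosphorylation of Rb1, the retinoblastoma protein, which otherwise holds back E2F factors and entry into S phase. Inhibitors of the Cip/Kip family (Cdkn1a or p21, Cdkn1b or p27Kip1, Cdkn1c or p57Kip2) bind several cyclin-CDK complexes, whereas those of the INK4 family (Cdkn2c or p18, Cdkn2d or p19) bind CDK4 and CDK6. In the mouse cochlea, Cdkn1b is known as a marker of the prosensory domain as it leaves the cell cycle and later of SCs, and loss of Cdkn2d in HCs or of Rb1 is known to lead to HCs that enter the cycle again.

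The samples are 11 droplet libraries of wild-type CD1 mice, made from dissociated epithelium of the cochlear duct floor: 2 at embryonic day 14 (E14), 3 at E16, 4 at postnatal day 1 (P1) and 2 at P7, which carry the numbers 4 and 5. Each library is a separate collection that pooled the cochleae of several animals of either sex, so that differences between animals cannot be seen. The libraries hold 30634 cells, 1247 to 5598 each, with medians of 2478 to 5648 unique molecular identifiers (UMIs) per cell. Replicate 4 of P1 was shallower (median 3832) than the other P1 libraries (5227 to 5648). Libraries of the same age shared 5 to 27 barcodes, at most 0.802% of the smaller library.

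A cell was given the class whose marker list it expressed most strongly, where its score and its lead over the next list were high enough, which left 1458 of 5253, 2045 of 7961, 5797 of 14043 and 1671 of 3377 cells of the 4 ages without a class. This yielded 89, 588, 1048 and 259 HCs at E14, E16, P1 and P7, 534 and 941 prosensory cells at E14 and E16, 1264 and 175 SCs at P1 and P7, and 1130, 2126, 3185 and 311 KO cells at the 4 ages. No SC list was used at E14 and E16, while the paper names inner phalangeal and inner pillar cells at E16. The prosensory class of E16 can therefore hold cells that already differentiate as SCs. Of the prosensory cells, 422 of 534 at E14 and 674 of 941 at E16 fell in clusters of that name. In HCs the summed level of the HC list was 8217 to 35301 CPM (UMIs per 1000000 UMIs of a cell, averaged over the cells of a library), against 199 to 766 CPM in the other classes. A class of this kind is a range of a score: 4 of 1048 HCs, 164 of 1264 SCs and 1068 of 3185 KO cells at P1, and 148 of 311 KO cells at P7, lay within 0.1 of the threshold. The gate takes only part of KO. Of the 89 HCs at E14, 57 also scored for another list, so those cells are described without a test. Blood, mesenchymal and endothelial markers summed to at most 72.7, 144 and 77.1 CPM in these classes, and the mesenchymal maximum was in KO at P7 (118 and 144 CPM). Glial markers reached 134 CPM, in KO of E16. A list of 4 neuronal genes summed in HCs to 40.5 and 287 CPM at E14, 227 to 332 CPM at E16, 489 to 782 CPM at P1 and 121 and 187 CPM at P7, and its part in the HC levels was not tested.

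For the members with the widest separation between HCs and SCs, Cdkn1b and Cdkn2d, the 250 bases before the RefSeq start of transcription are shown to locate the genes. RefSeq entries of the table used were matched for 5 of the 9 genes (build GRCm38.p6). Capitals mark the letters GGGCGG (a GC box) or CCAAT on either strand.

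Cdkn1b, chr6:134920151-134920400, plus strand: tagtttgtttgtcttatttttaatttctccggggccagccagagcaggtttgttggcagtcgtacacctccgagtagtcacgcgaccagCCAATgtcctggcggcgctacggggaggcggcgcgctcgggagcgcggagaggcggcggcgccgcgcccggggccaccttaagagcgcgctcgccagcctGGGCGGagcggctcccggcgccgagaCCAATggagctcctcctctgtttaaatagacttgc
Cdkn2d, chr9:21291210-21291459, minus strand: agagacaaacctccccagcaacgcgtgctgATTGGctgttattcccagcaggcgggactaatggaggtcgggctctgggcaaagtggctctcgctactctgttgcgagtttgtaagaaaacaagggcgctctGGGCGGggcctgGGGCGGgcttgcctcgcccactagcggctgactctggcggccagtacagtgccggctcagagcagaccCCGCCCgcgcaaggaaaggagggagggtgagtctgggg

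The Cdkn1b window holds CCAAT 161 and 35 bases before the start and GGGCGG 61 bases before it. The Cdkn2d window holds GGGCGG at 118, 106 and, on the other strand, 38 bases before the start, and CCAAT on the other strand at 220. The GENCODE gene model of Cdkn2d, whose position is given with its levels, starts upstream of the RefSeq start, so the GGGCGG letters of this window lie inside that model and the CCAAT letters outside it. These letters are common, with GGGCGG in 32.7% and CCAAT in 33.8% of 32851 such windows. Neither window holds CAGCTG or CAGATG, forms of the E-box bound by ATOH1 and related factors (13.0% and 14.4% of windows), or ACAATG, a form bound by SOX factors (10.7%). The E2F forms TTTGGCGC (0.417%) and TTTCCCGC (0.895%) were not in these windows either.

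**Figure D1:**
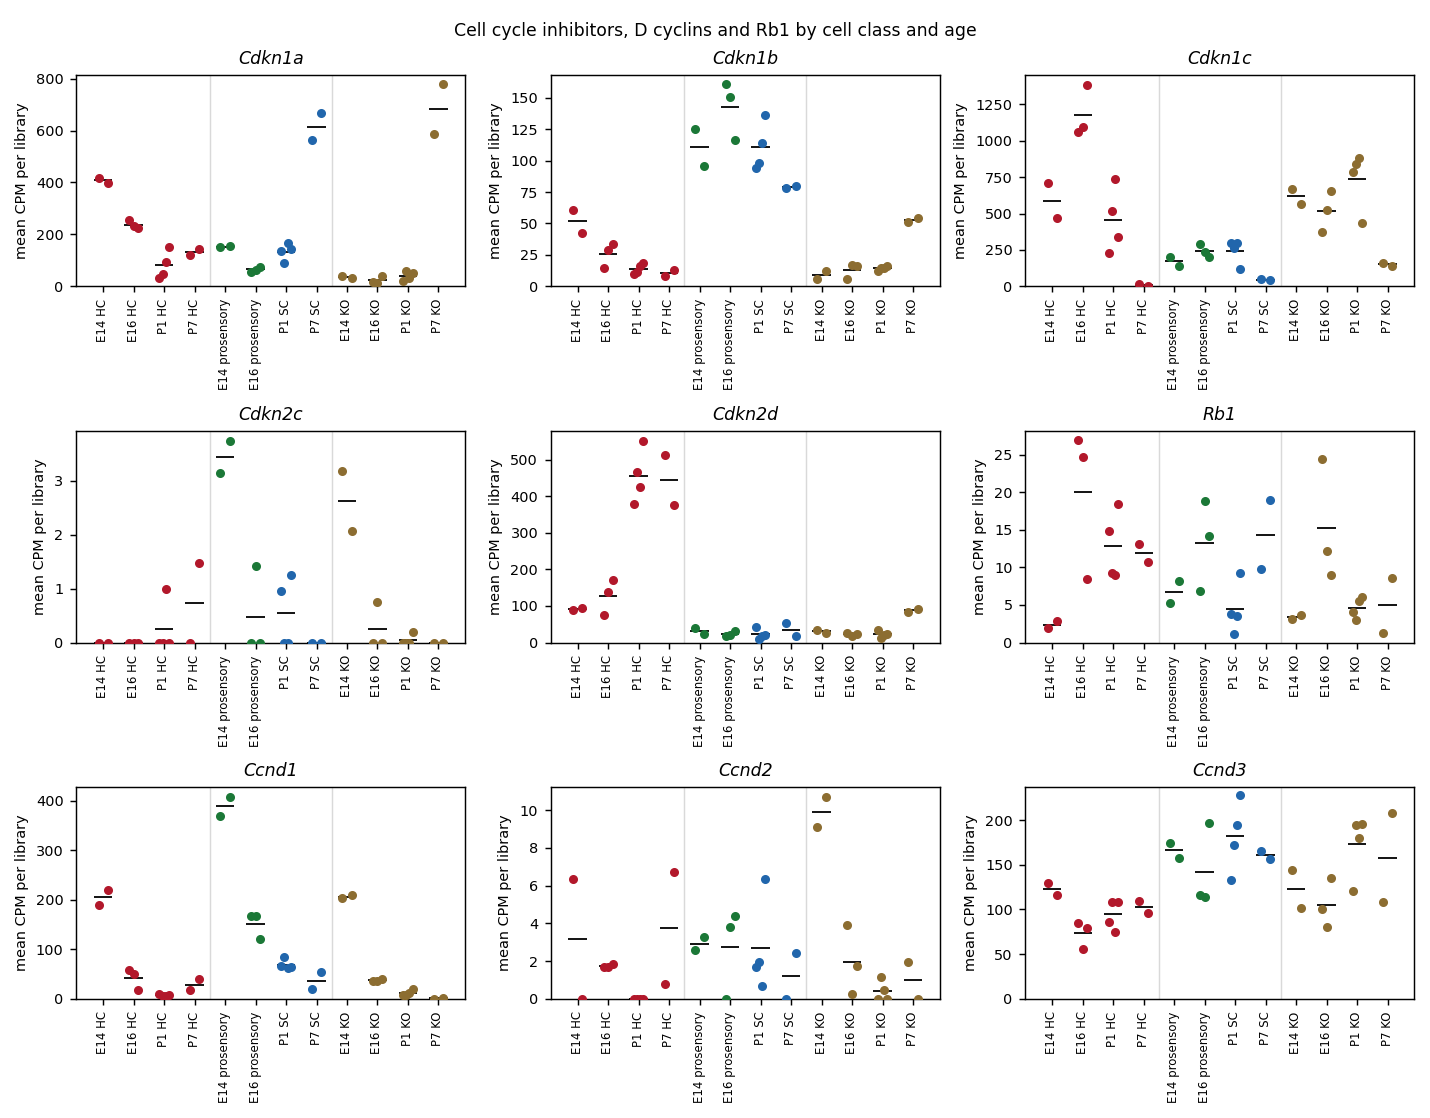
Mean CPM of each gene (vertical axis, linear from 0) in HCs (red), prosensory cells (green), SCs (blue) and KO (brown) at each age, with 1 point per library and the mean over libraries as a bar. Cdkn1b was highest in prosensory cells and SCs, Cdkn2d in HCs of P1 and P7, and Cdkn1a reached 564 to 777 CPM in SCs and KO of P7.

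Within an age, the classes were compared over libraries with limma (adjusted p by Benjamini-Hochberg over all genes tested, threshold 0.05). Cdkn2c and Ccnd2 were under the required mean of 10 CPM in every comparison and were not tested in any, and Rb1 was tested in 3 comparisons across ages only. Between prosensory cells and KO, 2 members were higher and 1 lower at E14, when 6.53% of all 9184 genes were called. At E16, 3 were higher and 1 lower, with 16.5% of genes called. In HCs against prosensory cells of E16, 3 were higher and 3 lower (36.1% of genes). In HCs against SCs, 2 were higher and 4 lower at P1 (56.6%), and 1 was higher and 4 lower at P7 (50.7%). In SCs against KO, 3 were higher and 1 lower at P1 (26.0%), and 1 was higher and 2 lower at P7 (27.6%). The counts of members follow from few genes, so the values below are given gene by gene.

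**Figure D2:**
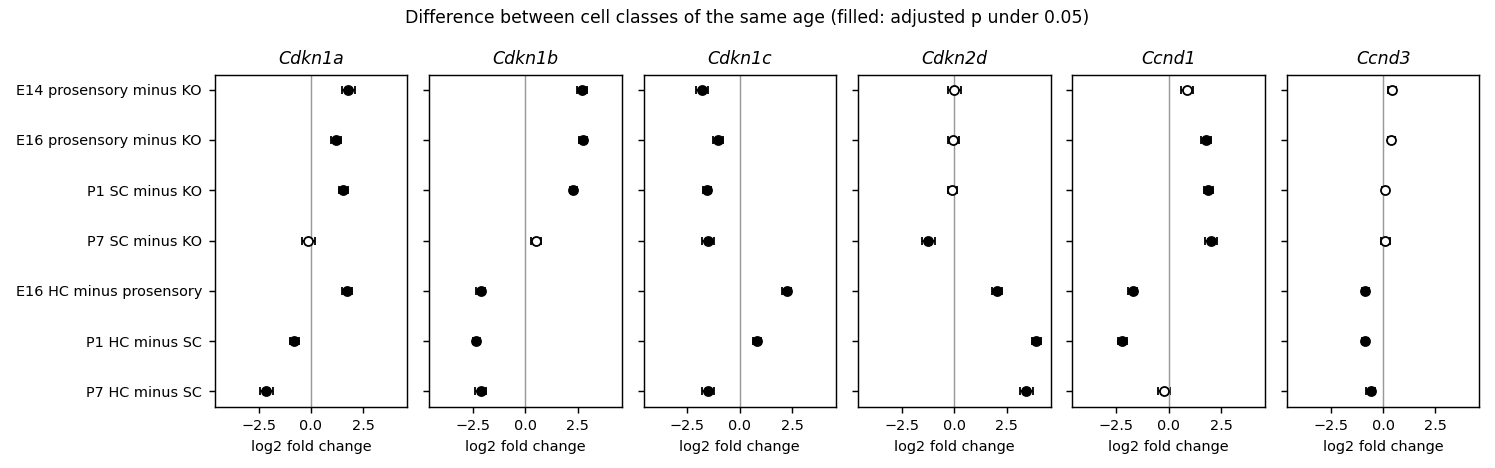
Log2 fold change of mean CPM + 10 between classes of the same age (horizontal axis, bars are 1 SE) for the 6 members tested, with filled points where the adjusted p was under 0.05. Cdkn1b lay above 0 in prosensory cells and SCs against KO, without a call at P7, and below 0 in HCs, while Cdkn2d lay at 2.05 to 3.93 in HCs.

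Cdkn1b, p27Kip1, was highest in prosensory cells and SCs among the 4 classes (chr6:134920401-134925513, GRCm38). Prosensory cells held 125 and 95.9 CPM in the 2 E14 libraries and 161, 150 and 117 CPM in the 3 of E16. KO held 5.47 and 11.9 CPM at E14 and 5.69, 16.9 and 16.4 CPM at E16. The classes did not overlap at either age. As the study found its E14 prosensory cells with Cdkn1b, this separation may not be independent of how the markers arose. The log2 difference between prosensory cells and KO was 2.70 ± 0.26 (SE, adjusted p = 3.61e-09) at E14 and 2.76 ± 0.21 (adjusted p = 1.04e-11) at E16.

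After birth the level stayed with the SCs as a class, at 94.3, 98.3, 114 and 136 CPM in the P1 libraries and 78.5 and 80.1 CPM at P7. This did not hold for every kind of SC. At P7 Deiters' cells held 41.8 to 57.0 CPM, near KO of P7 (50.9 and 54.5 CPM). Inner phalangeal cells held 73.6 to 89.4 CPM and inner pillar cells 86.5 to 147 CPM there. At P1 Deiters' cells averaged 132 CPM, inner phalangeal cells 117 CPM and inner pillar cells 95.2 CPM. The kinds of SC were not compared in a test. HCs of P1 held 9.98 to 18.4 CPM, close to the 12.5 to 16.0 CPM of KO. HCs were lower than prosensory cells at E16 (14.6, 28.9 and 33.5 CPM, log2 difference -2.13 ± 0.21, adjusted p = 9.55e-10). They were also lower than SCs at P1 (-2.34 ± 0.18, adjusted p = 1.47e-12) and at P7 (-2.13 ± 0.26, adjusted p = 3.26e-08). The few HCs of E14 held 60.9 and 42.5 CPM, between prosensory cells and KO. From E16 to P1 in HCs the difference of -0.55 ± 0.28 was not called (adjusted p = 0.204).

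KO changed at P7, where 190 of its 311 cells fell in clusters named KO, against 2920 of 3185 at P1. It held 50.9 and 54.5 CPM there, above all 4 P1 libraries (log2 difference 1.36 ± 0.25, adjusted p = 0.00101), and the gap to SCs was 0.51 ± 0.26 and not called (adjusted p = 0.145). The SC to KO difference was smaller at P7 than at P1 by 1.79 ± 0.31 on the log2 scale (adjusted p = 9.45e-05). That test was chosen after the levels had been seen, and 17.3% of all genes passed it. KO of P7 also carried more of the SC marker list (3560 and 2860 CPM) than KO of P1 (187 to 400 CPM). Its level of Hensen's cell markers was higher too (1481 and 1178 CPM against 240 to 453 CPM). Markers of lesser epithelial ridge, Claudius and outer sulcus cells were lower (9274 and 8098 CPM against 23942 to 30270 CPM). The part of these in the KO levels of Cdkn1b and the other members was not tested.

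Among prosensory cells, Cdkn1b was read in cells with at least 2 UMIs of a list of 24 proliferation genes after every cell had been thinned to 1500 UMIs. Such cells made up 15.9% and 20.1% of prosensory cells, 24.1% and 27.5% of KO cells and 8.57% and 3.70% of HCs in the 2 E14 libraries, and 3.82% to 6.47% of prosensory cells and 1.59% to 4.40% of KO cells at E16. In E14 prosensory cells with proliferation UMIs Cdkn1b was at 25.8 and 22.3 CPM (39 and 58 cells), against 144 and 114 CPM in the other prosensory cells of the same libraries (207 and 230 cells). The log2 difference was -2.02 ± 0.56, lower in both libraries. The difference was not called over all genes (adjusted p = 0.380, unadjusted p = 0.0028), in a comparison that called 0.239% of genes. At E16 the levels were 265, 99.5 and 73.8 CPM against 156, 154 and 118 CPM, and the first of these rests on 7 cells. The 2 ages were not compared with each other. With these cells left out, the call of Cdkn1b in prosensory cells against KO stayed at E14 and E16.

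**Figure D3:**
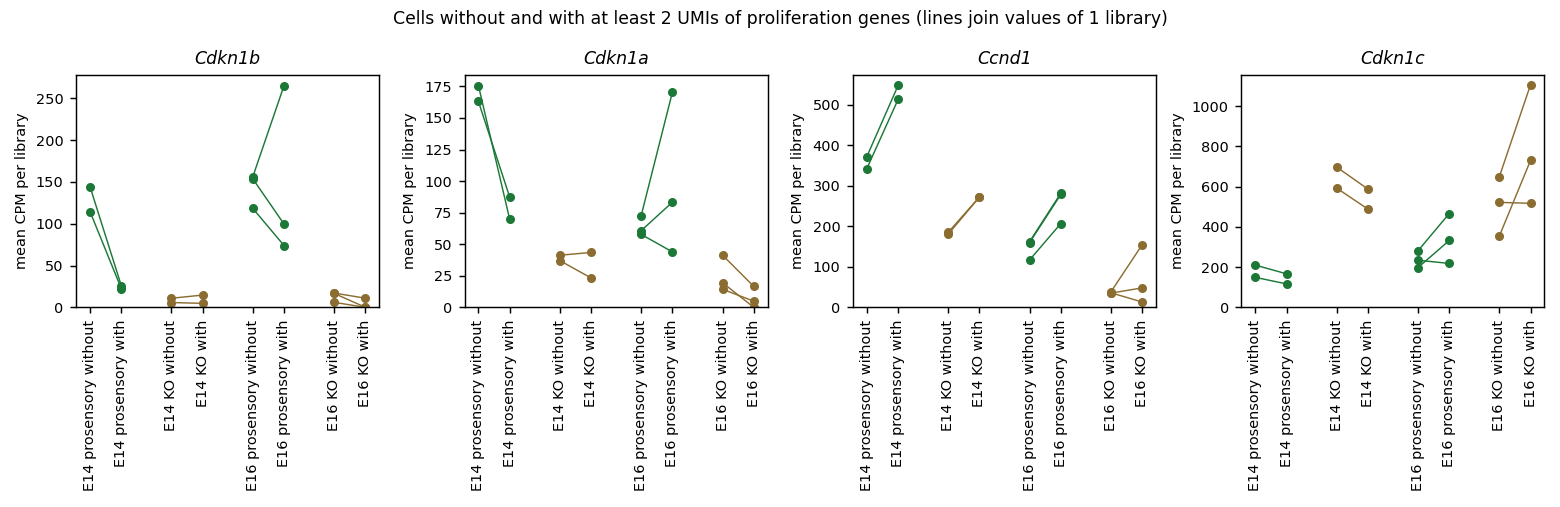
Mean CPM in prosensory cells (green) and KO cells (brown) without and with at least 2 UMIs of proliferation genes at E14 and E16, joined by library. In E14 prosensory cells Cdkn1b was at 25.8 and 22.3 CPM with and 144 and 114 CPM without such UMIs, and Ccnd1 was higher with them in all 5 prosensory pairs, with no member past the test's threshold, although the E16 direction of Ccnd1 reversed in the stricter gate (-3.91).

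The other members were read in the same cells. Ccnd1 was higher in prosensory cells with proliferation UMIs in both E14 libraries (514 and 548 CPM against 343 and 372) and in all 3 of E16 (282, 279 and 207 CPM against 162, 160 and 117). At E16 the log2 difference of Ccnd1 was 0.77 ± 0.28 (adjusted p = 0.221). It turned to -3.91 in the stricter gate (adjusted p = 0.0122) and was 1.45 at a minimum of 4 proliferation UMIs (adjusted p = 0.0203). In KO of E14 Ccnd1 was at 272 and 273 CPM against 181 and 185 CPM. At E16 the KO values were mixed, at 48.0, 13.0 and 154.6 CPM against 35.03, 35.99 and 38.2 CPM. Cdkn1a was at 87.2 and 69.6 CPM against 163 and 176 CPM in E14 prosensory cells, and at 43.9, 83.3 and 170.5 CPM against 57.8, 60.7 and 72.5 CPM at E16, higher in 2 of 3 libraries. Cdkn2c was at 17.8 and 18.6 CPM against 0.386 and 0 CPM in E14 prosensory cells and at 11.2 and 7.54 CPM against 0.617 and 0 CPM in E14 KO. Cdkn2d was at 101 and 27.3 CPM against 29.2 and 20.9 CPM in E14 prosensory cells. In E14 KO it was at 51.7 and 43.1 CPM against 30.2 and 19.6 CPM. At E16 it was mixed in prosensory cells, at 0, 54.9 and 126 CPM against 17.6, 17.0 and 27.0 CPM. None of the members tested passed the threshold in KO (limma, 5 tested, 0.231% of genes called at E14 and 0.0578% at E16) or in prosensory cells (6 tested, 0.239% and 0.627% of genes). At an unadjusted p under 0.05 the numbers were 0 and 1 in KO and 1 and 1 in prosensory cells. Of the proliferation list itself, which chose the cells, 23 genes were tested and 8 and 2 were called in KO. The comparison in prosensory cells was added after the values had been seen.

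Cdkn2d, p19 of the INK4 family, was highest in HCs (chr9:21288410-21291407). It stood at 88.7 and 95.1 CPM in the HCs of E14, at 74.4, 138 and 172 CPM at E16, at 378, 466, 425 and 552 CPM at P1 and at 514 and 375 CPM at P7. As whole classes, prosensory cells and SCs never exceeded 52.6 CPM. Subsets of them did, such as inner phalangeal cells of P7 (4.29 to 107 CPM) and prosensory cells with proliferation UMIs. Every HC library was above every prosensory or SC library of its age. The log2 difference was 2.05 ± 0.25 at E16 (HCs against prosensory cells, adjusted p = 7.48e-08), 3.93 ± 0.22 at P1 (against SCs, adjusted p = 5.35e-16) and 3.44 ± 0.31 at P7 (adjusted p = 8.44e-11).

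The rise within HCs lay between E16 and P1 (log2 difference 1.81 ± 0.25, adjusted p = 4.53e-05), a step over which the neuronal list was higher too, and P7 differed from P1 by -0.04 ± 0.29 (adjusted p = 0.95). At equal depth, 47.6% of 1048 P1 HCs had a UMI of Cdkn2d, against 3.80% of SCs and 3.71% of KO cells. KO of P7 held 83.6 and 92.6 CPM, against 13.2 to 35.2 CPM at P1 (log2 difference 1.59 ± 0.26, adjusted p = 0.000383). SCs of P7 held 52.6 and 17.5 CPM. Their difference from KO (-1.24 ± 0.31, adjusted p = 0.00264) depended on 1 library and was -0.58 without replicate 5 (adjusted p = 0.385).

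Within HCs, cells that scored for inner hair cell (IHC) genes held more Cdkn2d than those that scored for outer hair cell (OHC) genes in all 3 E16 libraries and all 4 P1 libraries. At E16 IHCs held 175, 282 and 406 CPM and OHCs 81.3, 94.4 and 122 CPM. At P1 IHCs held 499, 702, 653 and 915 CPM and OHCs 338, 411, 365 and 500 CPM. At P7 the order was the other one in both libraries, with 471 and 306 CPM in IHCs and 491 and 406 CPM in OHCs. These orders are a description, and no test was made.

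**Figure D4:**
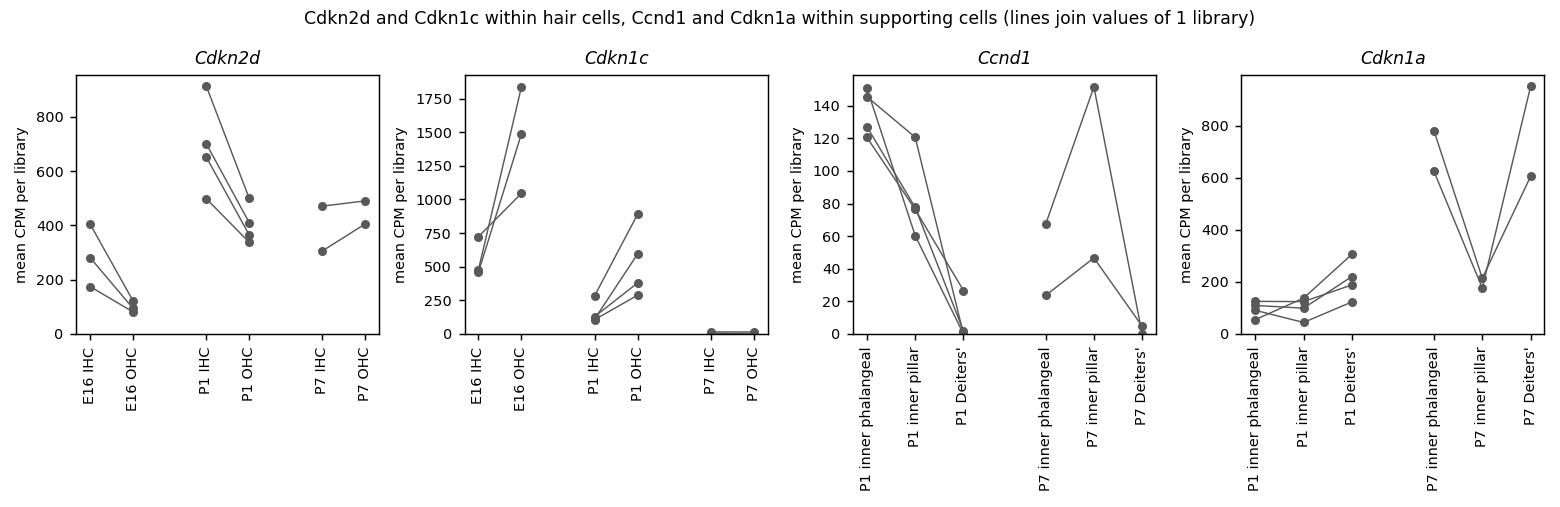
Mean CPM per library of Cdkn2d and Cdkn1c in IHCs and OHCs at E16, P1 and P7, and of Ccnd1 and Cdkn1a in inner phalangeal, inner pillar and Deiters' cells at P1 and P7, with a line joining the values of 1 library. At E16 and P1 Cdkn2d was higher in IHCs and Cdkn1c higher in OHCs in each of the 7 libraries.

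Cdkn1c, p57Kip2, fell from P1 to P7 in HCs, SCs and KO (chr7:143458339-143461050). HCs held 707 and 466 CPM at E14, 1056, 1091 and 1385 CPM at E16, 232, 517, 734 and 341 CPM at P1, and 17.9 and 3.37 CPM at P7. Between E16 and P1 HCs fell by 1.47 ± 0.32 on the log2 scale (adjusted p = 0.00317), and between P1 and P7 they fell by 4.47 ± 0.36 (adjusted p = 1.63e-08). KO fell from 435 to 881 CPM at P1 to 158 and 142 CPM at P7 (log2 difference -2.17 ± 0.28, adjusted p = 4.88e-05). SCs fell from 117 to 300 CPM to 50.5 and 41.0 CPM (-2.12 ± 0.34, adjusted p = 0.000767).

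Unlike Cdkn1b, Cdkn1c was lower in prosensory cells and SCs than in KO at each age. At E14 prosensory cells held 203 and 142 CPM and KO 671 and 564 CPM (log2 difference -1.79 ± 0.28, adjusted p = 1.93e-05). At E16 the difference was -1.04 ± 0.23 (adjusted p = 0.000945) and was -0.74 without replicate 3 (adjusted p = 0.060). At P1 SCs differed from KO by -1.58 ± 0.20 (adjusted p = 1.08e-07) and at P7 by -1.53 ± 0.28 (adjusted p = 7.37e-05). HCs stood above prosensory cells at E16 (2.24 ± 0.23, adjusted p = 1.43e-09) and above SCs at P1 (0.82 ± 0.20, adjusted p = 0.000586, and 0.42 with adjusted p = 0.0916 in the stricter gate), and below SCs at P7 (-1.52 ± 0.28, adjusted p = 2.90e-05). The turn between P1 and P7 was itself called, at -2.35 ± 0.34 (adjusted p = 4.38e-06), in an added test that called 20.4% of genes. The class order at P1 did not hold for every kind of cell. OHCs averaged 538 CPM and IHCs 157 CPM, against 416 CPM in Deiters', 178 CPM in inner pillar and 141 CPM in inner phalangeal cells. At P7 inner pillar cells averaged 10.1 CPM, near IHCs (10.5 CPM) and OHCs (8.63 CPM). Deiters' cells averaged 63.9 CPM and inner phalangeal cells 91.2 CPM there.

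OHCs held more Cdkn1c than IHCs in each library of E16 and P1. The values at P1 were 288, 595, 890 and 380 CPM in OHCs against 106, 110, 284 and 129 CPM in IHCs, and at E16 1045, 1488 and 1837 CPM against 724, 459 and 477 CPM. From E14 to P1 the highest values among all gates lay outside the 4 classes, in cells with markers of interdental cells, which border KO on its medial side. They held 2806 and 2575 CPM at E14, 4571, 4477 and 7290 CPM at E16 and 3047 to 13327 CPM at P1. Of these cells 265 of 465, 665 of 859 and 1209 of 1373 fell in clusters of the same name, against 42 of 238 at P7, which are not described.

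Cdkn1a, p21, a known target of p53, was higher in HCs of E16 than of P1, and higher in SCs and KO of P7 than of P1 (chr17:29090976-29100727). HCs held 419 and 399 CPM at E14, 254, 232 and 225 CPM at E16, 32.4, 49.5, 93.5 and 151 CPM at P1, and 122 and 144 CPM at P7. The fall from E16 to P1 was 1.62 ± 0.32 on the log2 scale (adjusted p = 0.00156). At E16 HCs were above prosensory cells (57.2, 62.2 and 76.3 CPM, log2 difference 1.72 ± 0.25, adjusted p = 1.77e-06), and prosensory cells above KO (18.6, 14.1 and 40.9 CPM, 1.19 ± 0.25, adjusted p = 0.000758). At E14 prosensory cells held 151 and 154 CPM and KO 41.8 and 33.2 CPM (1.78 ± 0.31, adjusted p = 0.000125). The fall in prosensory cells between the 2 ages (-1.12 ± 0.23, adjusted p = 0.0119) was not called once either E14 library (adjusted p = 0.210 and 0.223) or E16 replicate 2 (adjusted p = 0.0658) was left out, nor in the stricter gate (-0.68, adjusted p = 0.220).

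At P7 KO held 585 and 777 CPM, against 18.8 to 59.5 CPM at P1, a log2 difference of 3.84 ± 0.35 (adjusted p = 1.31e-06). SCs held 564 and 666 CPM, against 88.5 to 168 CPM at P1 (2.15 ± 0.27, adjusted p = 0.000108). The P7 level was not limited to these classes: cells without a class held 743 and 817 CPM at P7 and 23.5 to 54.9 CPM at P1, and the other P7 gates apart from HCs held 525 to 1011 CPM. In HCs the difference was 0.82 ± 0.37 and not called (adjusted p = 0.131), and it was 1.16 without P1 replicate 4 (adjusted p = 0.00962). HCs were below SCs at P1 (-0.80 ± 0.22, adjusted p = 0.00245) and further below them at P7 (-2.13 ± 0.31, adjusted p = 1.02e-06), and this change of the gap was called in an added test (-1.33 ± 0.38, adjusted p = 0.0114). It was not called without P1 replicate 4 (-1.03, adjusted p = 0.0537) or in the stricter gate (-0.94, adjusted p = 0.222). Nor was it called without doublet candidates (-1.38, adjusted p = 0.0505) or with an added constant of 1 CPM (-1.30, adjusted p = 0.0574). The call was lost as well without P7 replicate 4 (-1.34) or P7 replicate 5 (-1.32), which leaves 1 library of P7. At P1 the difference was -0.48 without replicate 1 (adjusted p = 0.0773) and -0.36 with clusters in place of the gate (adjusted p = 0.132).

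Among SCs of P7, inner pillar cells held 214 and 176 CPM of Cdkn1a, below Deiters' cells (606 and 952 CPM) and inner phalangeal cells (781 and 625 CPM) of the same libraries. At P1 the 3 kinds overlapped, at 44.2 to 138 CPM in inner pillar, 123 to 306 CPM in Deiters' and 55.2 to 125 CPM in inner phalangeal cells. A list of 10 immediate early and heat shock genes, written after these levels were seen, moved with age too. In prosensory cells it summed to 5516 and 4730 CPM at E14 and 2986, 3298 and 2193 CPM at E16, over the step at which Cdkn1a fell there, and 2 of 8 tested genes were lower and 0 higher (5.62% of all genes were called). In HCs it summed to 4421 and 2899 CPM at E14 and 1134 to 1246 CPM at E16. In KO it summed to 5906 and 4644 CPM at E14 and 2750 to 3384 CPM at E16. From E16 to P1, when Cdkn1a fell in HCs, 0 of 10 tested genes of this list were called there, with 15.7% of all genes called. At P7 the list summed to 7104 and 5479 CPM in KO, 4216 and 3201 CPM in SCs and 7388 and 4160 CPM in HCs. At P1 it summed to 2285 to 4504, 1712 to 2750 and 725 to 2268 CPM in these classes. In KO 4 of 9 tested genes of this list were higher at P7, in SCs 3 of 9 and in HCs 7 of 10, in steps that called 23.5%, 11.9% and 17.8% of all genes in either direction. The part of dissociation in the Cdkn1a level was not tested. Age and library preparation cannot be told apart, since each library holds 1 age.

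Ccnd1, cyclin D1, declined in KO at every step (chr7:144929931-144939925). KO held 203 and 209 CPM at E14, 35.6, 35.4 and 40.0 CPM at E16, 7.37, 6.91, 12.2 and 20.3 CPM at P1 and 0 and 1.12 CPM at P7. The log2 differences were -2.20 ± 0.26 (adjusted p = 0.000193), -1.15 ± 0.22 (adjusted p = 0.00374) and -1.0007 ± 0.25 (adjusted p = 0.00925). The last step compares levels near the added 10 CPM, and at P7 the KO cells held 1 UMI of Ccnd1. It was not called without P7 replicate 4 (-0.92), with an added constant of 50 CPM (-0.28, adjusted p = 0.101) or in the stricter gate (-0.79, adjusted p = 0.0711). Markers of lesser epithelial ridge, Claudius and outer sulcus cells also moved in KO. They summed to 2161 and 1829 CPM at E14 and 4258 to 9600 CPM at E16. At P1 they summed to 23942 to 30270 CPM and at P7 to 9274 and 8098 CPM. Their part in the Ccnd1 level was not tested.

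Prosensory cells held 370 and 408 CPM at E14 and 167, 168 and 120 CPM at E16 (log2 difference -1.31 ± 0.21, adjusted p = 0.00285, and adjusted p = 0.0573 and 0.1 without either E14 library). They were above KO by 0.88 ± 0.28 at E14, which missed the threshold (adjusted p = 0.0569). That difference was called with an added constant of 50 CPM (0.78, adjusted p = 0.000773), in the stricter gate (1.36, adjusted p = 0.00806), without proliferating cells (0.93, adjusted p = 0.0351) and with E14 fitted alone (0.88, adjusted p = 0.00538). At E16 they were above KO by 1.77 ± 0.23 (adjusted p = 5.32e-07). SCs were above KO at P1 (65.4, 84.97, 61.6 and 64.3 CPM, 1.90 ± 0.20, adjusted p = 4.39e-09) and at P7 (19.2 and 53.5 CPM, 2.03 ± 0.28, adjusted p = 1.43e-06). From P1 to P7 SCs differed by -0.87 ± 0.32 (adjusted p = 0.101), and by -1.43 without replicate 5 (adjusted p = 0.0425).

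HCs held 190 and 220 CPM of Ccnd1 at E14, 58.1, 50.4 and 17.6 CPM at E16, 5.38 to 8.69 CPM at P1 and 16.8 and 40.2 CPM at P7. They were below prosensory cells at E16 (-1.72 ± 0.23, adjusted p = 3.41e-07) and below SCs at P1 (-2.22 ± 0.20, adjusted p = 4.33e-11), and at P7 the difference from SCs was -0.23 ± 0.28 (adjusted p = 0.513). From E16 to P1 HCs fell by 1.52 ± 0.32 (adjusted p = 0.00233), a step that was -0.47 in the stricter gate (adjusted p = 0.438) and -1.08 without doublet candidates (adjusted p = 0.143). The change of the gap to SCs from P1 to P7 was called in the added test (1.98 ± 0.35, adjusted p = 7.46e-05). The rise from P1 to P7 in HCs (1.11 ± 0.36, adjusted p = 0.0352) was 0.66 without replicate 5 (adjusted p = 0.497). It was also lost without P1 replicate 2 (1.09, adjusted p = 0.0675) or P1 replicate 3 (1.07, adjusted p = 0.0775), with an added constant of 50 CPM (0.45, adjusted p = 0.113), without the filter (adjusted p = 0.0856), with summed UMIs (0.94, adjusted p = 0.0745) and without doublet candidates (1.36, adjusted p = 0.0836).

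SC kinds differed in Ccnd1. Inner phalangeal cells of P1 held 127, 146, 151 and 121 CPM, inner pillar cells 77.7, 121, 60.4 and 76.5 CPM and Deiters' cells 1.84, 0, 0 and 26.6 CPM. The order was the same in the 4 libraries, and Deiters' cells lay apart from the others. Deiters' cells averaged 7.12 CPM, near HCs (6.97 CPM) and KO (11.7 CPM) of P1. The higher level of the SC class over HCs and KO at P1 was thus not seen in Deiters' cells. At P7 inner pillar cells held 46.7 and 152 CPM, inner phalangeal cells 23.6 and 67.2 CPM and Deiters' cells 4.72 and 0 CPM. Cells with lateral markers (lesser epithelial ridge, Claudius and outer sulcus) held 471 and 554 CPM at E14 and 350 to 445 CPM at E16, where 748 of 807 and 584 of 665 of them fell in clusters of that name. Fewer did so later (201 of 590 at P1), and those ages are not described.

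Ccnd3, cyclin D3, was present in every class and age, from 55.3 to 229 CPM. HCs were lower than prosensory cells at E16 (85.3, 55.3 and 79.8 CPM against 117, 114 and 197 CPM, log2 difference -0.85 ± 0.17, adjusted p = 0.000208). They were lower than SCs at P1 (75.3 to 109 CPM against 133 to 229 CPM, -0.87 ± 0.15, adjusted p = 9.75e-06) and at P7 (109 and 96.4 CPM against 166 and 157 CPM, -0.60 ± 0.21, adjusted p = 0.0178). At P7 the call was lost without replicate 4 (-0.65) or replicate 5 (-0.56), which leaves 1 library of P7. It was also lost without doublet candidates (-0.63, adjusted p = 0.0512). Prosensory cells or SCs against KO differed by 0.07 to 0.42, with no call at any age, and no step between ages was called in any class, although from E16 to P1 KO stood 0.82 higher without P1 replicate 1 (adjusted p = 0.0336).

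Ccnd2, cyclin D2, stayed at or under 10.7 CPM in the 4 classes, with no UMI in 1048 HCs of P1, for which the exact 95% interval of the share of HCs with a UMI reaches 0.351%. Its higher values lay in cells with roof markers, at 138 and 111 CPM at E14 and 124, 83.8 and 183 CPM at E16, and in interdental cells of E14 (130 and 94.8 CPM). Cdkn2c stayed at or under 3.74 CPM in the 4 classes, with no UMI in the HCs of E14 and E16. The level that 3 UMIs give depends on the number of cells, from 0.521 CPM in KO of P1 replicate 1 to 16.7 CPM in HCs of E14 replicate 1. Rb1 held 1.10 to 26.9 CPM. Its HC values were 26.9, 24.7 and 8.42 CPM at E16 and 8.95 to 18.5 CPM at P1. The 3 steps tested were not called (prosensory cells E14 to E16, adjusted p = 0.445, HCs E16 to P1, adjusted p = 0.458, HCs P1 to P7, adjusted p = 0.944). HCs and SCs were not compared for Rb1 in the fits reported. It averaged 5.58 CPM in Deiters', 5.38 CPM in inner phalangeal and 2.59 CPM in inner pillar cells at P1. At P7 these held 23.8 (from 4 UMIs), 9.30 and 11.4 CPM, with 13.1 CPM in IHCs and 12.1 CPM in OHCs.

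Counted by step, the members called between ages were 0 higher and 2 lower in prosensory cells from E14 to E16 (5.62% of genes called), 0 and 1 in KO (4.67%), 0 and 1 in KO from E16 to P1 (10.0%), and 3 and 2 in KO from P1 to P7 (23.5%). In HCs they were 1 and 3 from E16 to P1 (15.7%) and 1 and 1 from P1 to P7 (17.8%), and in SCs 1 and 1 from P1 to P7 (11.9%). The median log2 difference over all genes was -0.15 and -0.19 for the steps from E14 to E16 and between -0.10 and 0.10 for the others. Whether the gap between prosensory cells and KO changed from E14 to E16 was asked of 6 members in limma, with none called, 2 at an unadjusted p under 0.05 and 0.544% of genes called.

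The proliferation list gave the setting for these steps. It summed to 1531 and 1632 CPM in KO of E14, 94.7 to 225 CPM at E16 and 49.7 to 85.02 CPM after birth. In prosensory cells it summed to 830 and 1189 CPM at E14 and 236 to 388 CPM at E16. From E14 to E16 all 15 genes tested were called lower in KO and 11 of 17 in prosensory cells. The median log2 difference of all genes was -0.19 and -0.15. Genes were tested where their mean over all libraries of the class reached 10 CPM. With the list so much lower after E14, genes high at E14 passed that filter more readily. These counts were therefore partly set by the filter.

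Of 26 other genes of G1 control, 13 to 16 were expressed highly enough to test. Mycl, a MYC family member, was higher in prosensory cells than in KO at E14 (1.14 ± 0.22, adjusted p = 0.000602) and E16 (2.0 ± 0.18, adjusted p = 5.08e-10), in SCs than in KO at P1 (2.37 ± 0.16, adjusted p = 1.64e-13), and in HCs than in prosensory cells or SCs (E16, 1.65 ± 0.18, adjusted p = 8.90e-09, and P1, 0.89 ± 0.16, adjusted p = 1.53e-05). Of the 14 genes of this list tested in prosensory cells against KO, it was the only one called at E14 and at E16. Of all genes, 6.53% and 16.5% were called there. Mycn and E2f5 were lower in HCs than in SCs at P1 (-1.84 ± 0.19 and -1.59 ± 0.17) and P7 (-2.88 ± 0.27 and -2.14 ± 0.24). Mycn was lower in HCs than in prosensory cells at E16 (-1.43 ± 0.22), as was Cdk2 (-1.11 ± 0.28), while Tfdp2 was higher at E16 (0.80 ± 0.20) and P1 (0.55 ± 0.18). Mdm2 and Ccng1, known p53 targets, were higher in HCs than in SCs at P7 (1.27 ± 0.24 and 0.83 ± 0.30). A part of p53 in these levels was not tested.

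In SCs against KO, E2f5 was higher at P1 (0.89 ± 0.17), and at P7 Mycn (2.91 ± 0.27) and E2f5 (1.77 ± 0.24) were higher and Cdk2 (-1.09 ± 0.34) and Mdm2 (-0.89 ± 0.24) lower. In counts, 1 of 14 genes was higher and 0 lower in prosensory cells against KO at both ages, 3 and 3 in HCs against prosensory cells at E16, 4 and 6 in HCs against SCs at P1 and 4 and 4 at P7, and 4 and 0 in SCs against KO at P1 and 2 and 3 at P7. All genes were called at 6.53% and 16.5%, 36.1%, 56.6% and 50.7%, and 26.0% and 27.6% in these comparisons. With 14 genes tested, none of these counts is read as a departure from that background. Between ages, Cks1b, a subunit of CDK complexes, was lower in KO from E14 to E16 (-1.18 ± 0.20), in HCs from E16 to P1 (-1.13 ± 0.23) and in SCs from P1 to P7 (-1.07 ± 0.25). Cdk4 was lower from P1 to P7 in HCs (-1.81 ± 0.28) and SCs (-1.03 ± 0.27). Skp2, which targets Cdkn1b protein for degradation, was lower in prosensory cells from E14 to E16 (-1.10 ± 0.29), and Mycl in KO over the same step (-1.32 ± 0.35). From P1 to P7 KO gained Mycl (1.79 ± 0.33) and lost Mycn (-2.48 ± 0.39) and E2f4 (-1.03 ± 0.25), and Mycn was lower in HCs (-1.34 ± 0.39). In cells with proliferation UMIs Cks1b was higher in E14 KO (1.66 ± 0.26, adjusted p = 0.0405) and in E16 prosensory cells (2.19 ± 0.27, adjusted p = 0.00143).

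The 12 class by age means of a member were set beside those of 9197 genes, as a description over points that share libraries. The nearest genes by Pearson's r of log2(mean CPM + 10) were Slitrk6 (0.95), Ramp3 (0.94) and Rgs6 (0.94) for Cdkn1b, Tanc2 (0.98), Trim36 (0.97) and Fam19a3 (0.97) for Cdkn2d, and Sh3gl2 (0.92), Plk3 (0.88) and Btrc (0.88) for Cdkn1a. They were 2610301B20Rik (0.95), Nnat (0.94) and Abracl (0.94) for Cdkn1c, Rrs1 (0.94), 2610318N02Rik (0.93) and Rnf216 (0.92) for Ccnd1, and Pink1 (0.95), Krt8 (0.94) and Ifngr1 (0.93) for Ccnd3. Cdkn2c, Ccnd2 and Rb1 were under 10 CPM on average and were not set beside others.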

How the data were processed

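The members, gene lists and tests were chosen with earlier results of these data known. The authors counted UMIs with Cell Ranger 2.1.1 on mm10, removed cells with many mitochondrial or stress gene transcripts in Seurat 2.0, and deposited natural log (ln) values of 1 plus 10000 times a gene's share of the UMIs of a cell. UMIs worked back from these values were whole within 2% for 100% of values above 0. Cells were classed by the mean z-score of marker lists (score at least 0.3, lead at least 0.2), many of them drawn from the study's tables on the same libraries. Cells with 3 or more genes of a non-epithelial list were left out, and doublets were kept. CPM were averaged per class and library, and log2(mean CPM + 10) was fitted with limma 3.58.1 (R 4.3.3, mean trend), leaving out genes whose average over the values fitted was under 10 CPM. Classes of 1 age were contrasted in a joint fit of all ages with library as a block, ages in a fit per class, and cycling cells per class with library as a block. Every member is named, with genes of the G1 list by the 2 largest called changes each way and the 3 nearest genes by correlation. Shares of cells were taken at 1500 UMIs, with exact 95% intervals for counting error only. The code of the fits was also run on simulated data, and the outcome of that check is not given here. Replicates are separate collections, and positions are from GENCODE vM21.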

Additional observations from a re-analysis of the deposited data

Results flagged for a closer look

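Of 26 groups of 4 libraries checked for a library far from the rest, 3 stood apart. The cut sets 1 group in 20 apart where values are normally distributed. Ccnd1 in SCs of P1 reached 84.97 CPM in replicate 2, where the remaining 3 libraries lay at 61.6 to 65.4 CPM. Cdkn2c was 0.99 CPM in P1 HCs of replicate 3 and 0.20 CPM in P1 KO of replicate 4, with 0 in the others. These values come from 2 and 1 UMIs. A group with 1 library above 0 always stands apart, so the rate of 1 in 20 does not hold for these 2 groups.

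Differences between classes that changed with age were found for 6 values, all from tests added after the levels had been seen. The gap between HCs and SCs changed from P1 to P7 by -1.33 for Cdkn1a (adjusted p = 0.0114), by -2.35 for Cdkn1c (adjusted p = 4.38e-06) and by 1.98 for Ccnd1 (adjusted p = 7.46e-05), on the log2 scale. The gap between SCs and KO changed by -1.69 for Cdkn1a (adjusted p = 0.00178), by -1.79 for Cdkn1b (adjusted p = 9.45e-05) and by -1.14 for Cdkn2d (adjusted p = 0.0334), the last of which was -0.48 without P7 replicate 5 (adjusted p = 0.585). That Cdkn2d value was not called either without P1 replicate 3 (-1.18, adjusted p = 0.0581) or 4 (-1.15, adjusted p = 0.0562). Nor was it called with an added constant of 1 CPM (-1.32, adjusted p = 0.0688), without the filter (-1.14, adjusted p = 0.0852) or without doublet candidates (-1.22, adjusted p = 0.0828). The Cdkn1a gap between HCs and SCs lost its call without P1 replicate 4, either P7 library or doublet candidates, with an added constant of 1 CPM, and in the stricter gate (-0.94, adjusted p = 0.222). All 3 changes of the SC to KO gap rest on the 311 KO cells of P7, of which 190 fell in clusters named KO. The change of this gap for Ccnd1 was not called as reported (0.13, adjusted p = 0.849). It was called with an added constant of 1 CPM (1.94, adjusted p = 0.00476), with KO of P7 at 0 and 1.12 CPM.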

How the results depend on the processing

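The 23 alternatives changed the added constant, filter, scaling, class mean, gate, clusters, doublets, proliferating cells or fits, or left out 1 library. Of 1767 values of members, 1713 kept their side of the threshold, 39 lost the call and 13 gained one. A further 2 changed direction with a call before or after. Changes of direction between uncalled values were counted as kept, such as Cdkn2d in prosensory cells against KO at E16 (-0.22 to 0.16 without 1 library). Of 291 counts of members called, 272 stayed within 1.5 times. The 2 called in HCs from P1 to P7 became 1 with an added constant of 50 CPM, without the filter, with summed UMIs, without doublet candidates and with the replicate block. The count for KO from E14 to E16 went from 1 to 3 without the filter, and that for prosensory cells from 2 to 1 in the stricter gate. Of cells with proliferation UMIs at E16, prosensory cells gained 1 call in the stricter gate and 1 at a minimum of 4 UMIs, and KO gained 2 at 4 UMIs. Both changes of direction with a call lie here, in few cells: Ccnd1 was -3.91 in prosensory cells of the stricter gate, and Cdkn2d -1.72 in KO at 4 UMIs. The KO value came from 5 and 6 such cells in replicates 1 and 2. At a minimum of 2 proliferation UMIs, such cells of these libraries held 1 UMI of Cdkn2d each. The cause of these changes was not tested.

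With each library left out in turn, the count ranged from 0 to 2 in prosensory cells from E14 to E16 (0 without either E14 library, 1 without E16 replicate 2), from 1 to 2 in KO from E16 to P1 (2 without P1 replicate 1 or 4) and from 1 to 3 in HCs from P1 to P7 (1 without P1 replicate 2 or 3 or P7 replicate 5). Counts within an age varied too, from 3 to 4 in prosensory cells against KO at E16 and from 5 to 7 in HCs against SCs at P1. The 7 include a gene under the filter in the fit reported. The count also moved in KO and SCs from P1 to P7, in the comparisons within P7 and in the added tests of gaps from P1 to P7. Some of those fits leave 1 library of P7. Replicate numbers did not pair the samples. Deviations from the group means correlated at -0.20 to 0.06 in KO and -0.12 to 0.07 in HCs over 8 same-numbered pairs each. With the replicate block the members called were 3 in prosensory cells from E14 to E16, 1, 2 and 5 in the 3 steps of KO, and 4 and 1 in the 2 steps of HCs. Cdkn1c was gained in prosensory cells (0.58, adjusted p = 0.023) and in KO from E16 to P1 (0.72, adjusted p = 0.0453, also gained without P1 replicate 4), and Ccnd1 was lost in HCs from P1 to P7 (0.60, adjusted p = 0.619).

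Counts over all genes moved more. Over the alternatives they were 123 to 1701 (494 as reported) in prosensory cells and 57 to 755 (398) in KO from E14 to E16, 0 to 2387 (5) and 1 to 1053 (55) for proliferating KO and prosensory cells of E16, and 486 to 1674 (1629) in HCs from P1 to P7. Scaling by the median of ratios shifted the median of all genes by 0.16 and 0.22 for prosensory cells and KO from E14 to E16, and their share of calls that were higher from 61.3% to 84.4% and from 45.7% to 78.3%. It took that share from 62.5% to 51.9% in prosensory cells against KO at E16 and from 64.4% to 51.5% in SCs against KO at P1. No call of a member changed under that scaling. E14 and P7 have 2 libraries each, which limits their precision.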

Other observations

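Lockd, a long noncoding RNA gene downstream of Cdkn1b on the same strand (chr6:134929092-134956798), was read as well because of its position, with its values already seen. Like Cdkn1b it was higher in prosensory cells and SCs than in KO (called at the 4 ages), at 240 and 260 CPM in prosensory cells of E14 and 386 to 500 CPM at E16, and at 340 and 584 CPM in SCs of P7. SCs of P1 held 734, 366, 310 and 46.9 CPM, so that replicate 4 was low in Lockd and highest in Cdkn1b (136 CPM). In KO of E14, cells with proliferation UMIs held 161 and 135 CPM of Lockd and the others 5.55 and 6.73 CPM, with Cdkn1b at 4.74 and 14.6 CPM against 5.70 and 10.9 CPM. That difference of Lockd (3.29 ± 0.63, limma) did not pass the adjustment over all genes (adjusted p = 0.109) and was of one direction in both libraries. In E14 prosensory cells Lockd was at 154 and 225 CPM in cells with proliferation UMIs against 280 and 244 CPM (-0.47 ± 0.33).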
